A study of Mus musculus with 42 samples.

Results

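Liver and skeletal muscle of wild-type mice at 35 weeks were compared across the genes of a 1-colour expression array. The comparison took the 4 arrays labelled as wild-type liver and the 4 labelled as wild-type muscle at that age, 8 of the 42 arrays of the series, chosen by their labels. All the animals were C57BL/6 females. The muscle was the quadriceps. The wild-type mice served as littermate controls for Akt1+/- mice, which carry a single working copy of the kinase gene Akt1, and the remaining arrays held Akt1+/- tissue, mice of 8 weeks and visceral fat. Total RNA of each tissue was labelled with Cy3 and hybridised alone, 1 sample to an array. The labels do not say whether a liver and a muscle array with the same replicate number came from the same mouse, and where replicates were not separate mice the p-values measure only the spread between these samples.

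Hepatocytes make most of the proteins of blood plasma, synthesise bile acids, turn ammonia into urea and release glucose during fasting. Skeletal muscle fibres hold repeated sarcomeres of thick myosin and thin actin filaments anchored at the Z-disc, release calcium from the sarcoplasmic reticulum when the nerve fires, and buffer ATP with phosphocreatine. Many enzymes that both tissues need are encoded by separate genes for a liver and a muscle form. Hepatocyte genes are switched on by a network that includes Hnf4a and the Foxa factors, and muscle genes by the Myod1 family together with Mef2 factors and the serum response factor.

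Levels are given throughout as log2 of the background-corrected spot intensity minus the array's own 75th percentile, so that 0 marks the 75th percentile of all probes on the array. A difference is liver minus muscle on this log2 scale, with the standard error of the fit. A gene was called higher in a tissue at an adjusted p below 0.05. Detection means that the scanner software marked the spot as well above its background, which 58.5 to 63.5% of probes were on the liver arrays and 60.3 to 65.0% on the muscle arrays. No probe was saturated on any of the 8 arrays. The number of arrays, 4 in each tissue, limits the precision. Across genes, arrays of the same tissue correlated at r = 0.986 to 0.992 in liver and 0.984 to 0.993 in muscle, against 0.627 to 0.650 between tissues. The 4 liver arrays lay on a single slide and the 4 muscle arrays on another, scanned on different days, so that slide, scan day and tissue cannot be told apart within this comparison.

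Muscle replicate 3 stood apart from the other muscle arrays in genes that liver expresses. Over the 100 brightest genes of the liver-higher set, the level on an array minus the mean of the other 3 muscle arrays had a median of -0.16 in replicate 1, -0.26 in replicate 2, 0.48 in replicate 3 and -0.22 in replicate 4. Replicate 3 was the highest of the 4 for 63 of the 100 genes and exceeded the mean of the others by a log2 of 1 or more for 42 of them, which happened for 1, 0 and 0 genes in replicates 1, 2 and 4. All 100 were detected on replicate 3, and 80, 84 and 74 on replicates 1, 2 and 4. Even there the signal was small against liver itself, with a median of 0.290% of the liver level in replicate 3 and 0.160 to 0.224% in the others. No liver array stood apart to this degree for the 100 brightest muscle genes, where the 4 medians lay between -0.06 and 0.04. Liver replicates 1 to 4 exceeded the mean of the others by a log2 of 1 for 7, 3, 1 and 4 genes. In liver replicate 1 these included Mb (2.63) and Acta1 (1.35). The part of muscle replicate 3 in the results was not tested beyond leaving it out. The counts over the liver and muscle lists, and the genes detected on only some muscle arrays, are given with and without it.

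**Figure D1:**
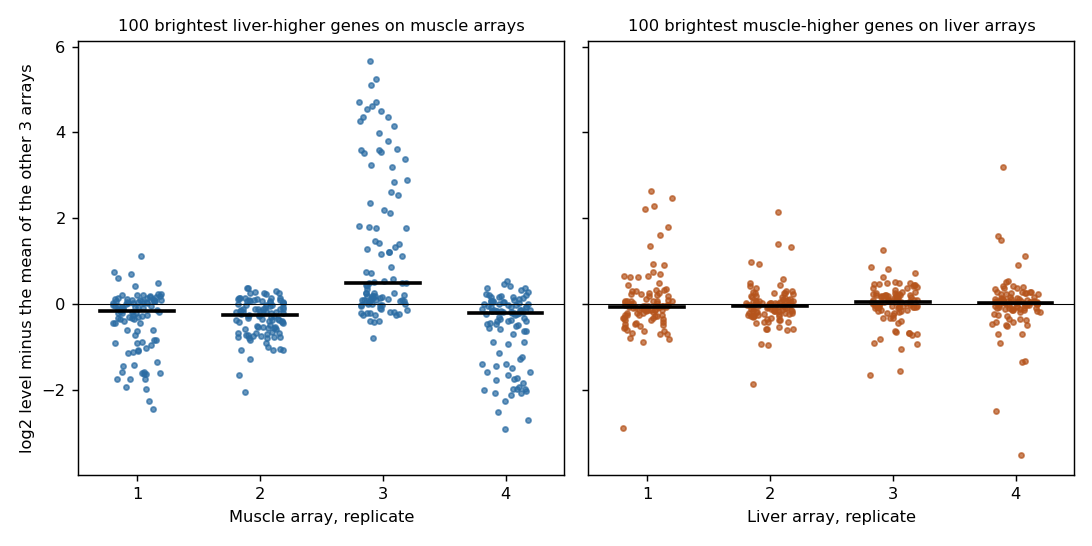
Each point is 1 of the 100 brightest genes of the other tissue, and the y axis gives its log2 level on an array minus the mean of the other 3 arrays of that tissue, for the 4 muscle arrays on the left and the 4 liver arrays on the right. Bars mark medians, and muscle replicate 3 is the array with 42 genes at 1 or more.

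The labelled tissues carried their defining markers. All 9 hepatocyte markers on the array were higher in liver, against 37.4% of all genes tested. All 10 skeletal myofibre markers were higher in muscle, against 42.6%. The 4 arrays of each tissue did not overlap for any of the 19, which held for 75.8% of all genes tested. Albumin (Alb), the main protein of plasma, stood at 9.47, 9.48, 9.84 and 9.77 on the liver arrays and at -3.10, -2.41, 1.76 and -3.38 on the muscle arrays. It was thus lower on every muscle array, though replicate 3 lay well above the rest, and the difference was 11.43 ± 1.04 (SE, n = 4 and 4; adjusted p = 1.07e-05) with that array and 12.61 without it. Hnf4a, a nuclear receptor at the centre of the hepatocyte network, stood at 3.77, 4.12, 4.18 and 4.49 in liver and was not well above background on any muscle array, replicate 3 included. Its level was at least 726-fold higher in liver (adjusted p = 2.16e-10). An at-least fold sets the mean of the bright tissue against, on each array of the dim tissue, the faintest signal that counted as detected or the gene's own signal where that was higher. For a gene that only some arrays of the dim tissue detected, the arrays that missed it are set in the same way, since their signals give no exact size.

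Acta1, the skeletal alpha-actin of the thin filament, stood at 9.96, 9.97, 9.91 and 9.90 in muscle and at -3.13, -4.11, -4.66 and -4.66 in liver, a difference of -14.08 ± 0.32 (adjusted p = 1.78e-09). The 4 muscle values were nearly the same, and the liver values, though detected on all 4 arrays, lay far below them. Myh4, the fast glycolytic myosin heavy chain, stood at 10.26, 10.37, 10.36 and 10.38 in muscle and was not well above background on any liver array, and it was at least 50656-fold higher in muscle (adjusted p = 7.45e-11). The summed linear level of the 10 myofibre markers was 7079 to 7487 times the 75th percentile on the muscle arrays and 0.669 to 0.748 on the liver arrays. For the 9 hepatocyte markers it was 2576 to 3499 on the liver arrays and 2.13, 2.43, 6.88 and 2.39 on muscle replicates 1 to 4. In tissue RNA a difference of this kind cannot tell fewer cells of a type from less RNA per cell.

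**Figure D2:**
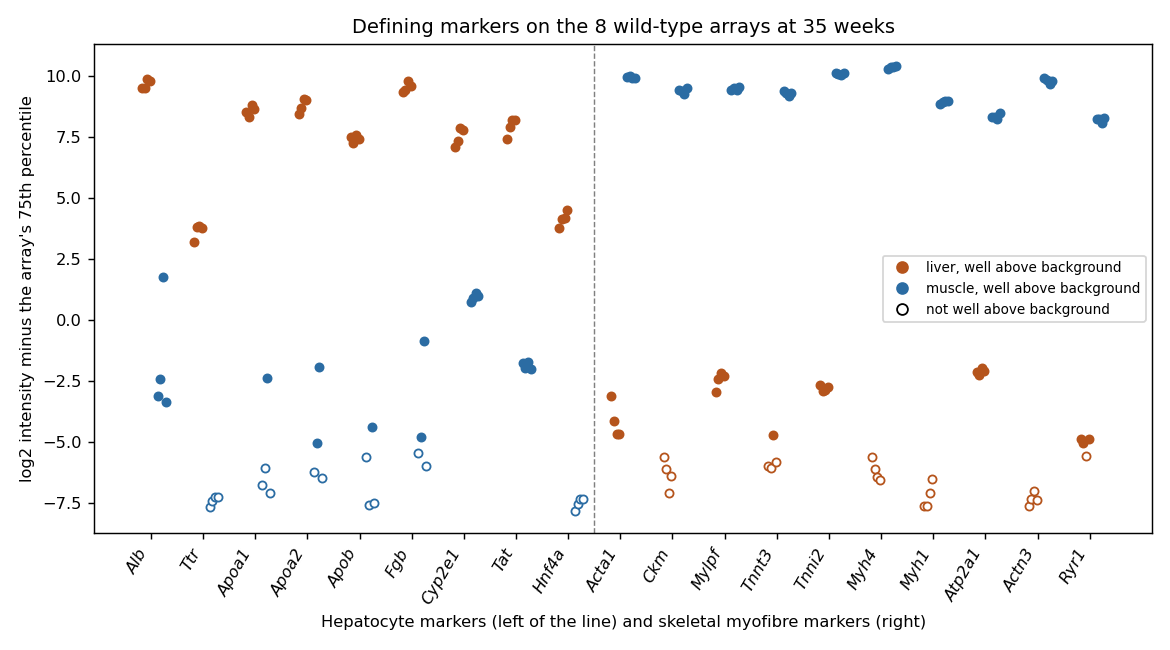
The y axis gives the level (log2 intensity less the 75th percentile of its array) of 9 hepatocyte and 10 skeletal myofibre markers on each of the 4 liver (orange) and 4 muscle (blue) arrays, and open circles were not well above background. Liver and muscle do not overlap for any marker, and in muscle the raised points of Alb at 1.76 and Fgb at -0.86 belong to replicate 3.

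The promoters of 6 genes among those that set the tissues apart are printed as examples. They are the 250 bases before the start of Alb, Fgb (fibrinogen beta chain) and Fabp1 (fatty acid binding protein of liver) and of Acta1, Mylpf (regulatory light chain of fast myosin) and Myh4, taken from RefSeq on build GRCm38.p6 and written 5′ to 3′ on the gene's strand. The 6 were chosen after the matches had been seen. Capitals mark letters that match, on either strand, the hexamer GTTAAT, the MCAT element CATTCCT, the TATA element TATAAA, the E-box CAGCTG, the CArG box or the MEF2 site.
Alb, chr5:90460620-90460869, strand +: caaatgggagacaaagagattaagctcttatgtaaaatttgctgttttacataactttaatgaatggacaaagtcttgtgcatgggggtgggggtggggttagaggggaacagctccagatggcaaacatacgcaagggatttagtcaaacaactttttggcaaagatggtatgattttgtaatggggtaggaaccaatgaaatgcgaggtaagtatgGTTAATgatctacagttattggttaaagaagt
Fgb, chr3:83049864-83050113, strand -: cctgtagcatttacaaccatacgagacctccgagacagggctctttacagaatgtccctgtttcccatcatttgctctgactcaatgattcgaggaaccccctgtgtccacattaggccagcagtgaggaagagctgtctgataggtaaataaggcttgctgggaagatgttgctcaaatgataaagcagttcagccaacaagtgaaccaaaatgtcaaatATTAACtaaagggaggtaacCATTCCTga
Fabp1, chr6:71199629-71199878, strand +: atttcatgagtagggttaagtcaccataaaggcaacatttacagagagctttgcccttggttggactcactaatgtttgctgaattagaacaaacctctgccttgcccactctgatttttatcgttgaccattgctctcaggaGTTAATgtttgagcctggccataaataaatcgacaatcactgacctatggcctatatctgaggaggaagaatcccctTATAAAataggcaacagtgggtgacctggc
Acta1, chr8:123894776-123895025, strand -: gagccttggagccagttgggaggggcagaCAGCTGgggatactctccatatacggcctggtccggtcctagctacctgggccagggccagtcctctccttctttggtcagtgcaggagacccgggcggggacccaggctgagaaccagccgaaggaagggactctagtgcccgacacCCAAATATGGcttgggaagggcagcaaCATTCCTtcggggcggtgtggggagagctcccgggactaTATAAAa
Mylpf, chr7:127211358-127211607, strand +: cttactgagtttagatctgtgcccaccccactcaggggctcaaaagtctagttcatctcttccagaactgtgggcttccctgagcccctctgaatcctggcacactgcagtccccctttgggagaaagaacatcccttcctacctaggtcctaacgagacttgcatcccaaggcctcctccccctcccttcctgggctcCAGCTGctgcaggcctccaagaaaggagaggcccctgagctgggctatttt
Myh4, chr11:67237562-67237811, strand +: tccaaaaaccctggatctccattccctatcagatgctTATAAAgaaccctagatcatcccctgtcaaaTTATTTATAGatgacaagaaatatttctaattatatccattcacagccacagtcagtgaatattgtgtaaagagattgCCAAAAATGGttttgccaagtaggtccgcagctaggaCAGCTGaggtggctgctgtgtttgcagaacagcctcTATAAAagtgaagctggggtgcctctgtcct

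Counted back from the gene start, which follows position -1, the hexamer GTTAAT lay at -32 to -27 in Alb, at -29 to -24 on the other strand in Fgb and at -107 to -102 in Fabp1. Fabp1 also held a TATA element at -30 to -25, and Fgb an MCAT element at -9 to -3. In Acta1 an E-box lay at -221 to -216, a CArG box, the letters bound by the serum response factor, at -73 to -64, an MCAT element at -46 to -40 and a TATA element at -7 to -2. Mylpf held an E-box at -51 to -46. Myh4 held an E-box at -67 to -62, a CArG box at -104 to -95, a MEF2 site at -182 to -173 and TATA elements at -213 to -208 and -31 to -26, and a TATA match at -179 to -174 overlapped the MEF2 site.

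Of the 11852 tested genes with a RefSeq promoter, 5.68% held the hexamer GTTAAT in these 250 bases, against 9.72% of the 1769 matched genes at least 4-fold higher in liver and 5.42% of the 1643 at least 4-fold higher in muscle. The E-box was in 14.8% of tested genes, 15.4% of the liver set and 20.2% of the muscle set. For the CArG box these shares were 1.49, 1.24 and 2.74%, for the MEF2 site 2.30, 2.20 and 3.71%, for the MCAT element 4.65, 5.03 and 6.63%, and for the TATA element 9.78, 13.9 and 12.4%. Over all 27025 promoters of the table the shares were 7.49% for the hexamer GTTAAT, 14.7% for the E-box, 1.62% for the CArG box, 3.42% for the MEF2 site, 5.19% for the MCAT element and 14.3% for the TATA element. These shares are a description without a test.

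Most of the genes tested differed between the tissues. Of 18157 genes, 14534 (80.0%) were called, 6796 (37.4%) higher in liver and 7738 (42.6%) higher in muscle, and 3623 were not called. At 4-fold or more, 2758 genes (15.2%) were higher in liver and 2496 (13.7%) higher in muscle. The 4 liver and the 4 muscle arrays did not overlap for 13762 genes (75.8%). The difference had a median of -0.10 over all genes tested, with quartiles at -1.09 and 1.02, and its absolute size had a median of 1.06.

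**Figure D3:**
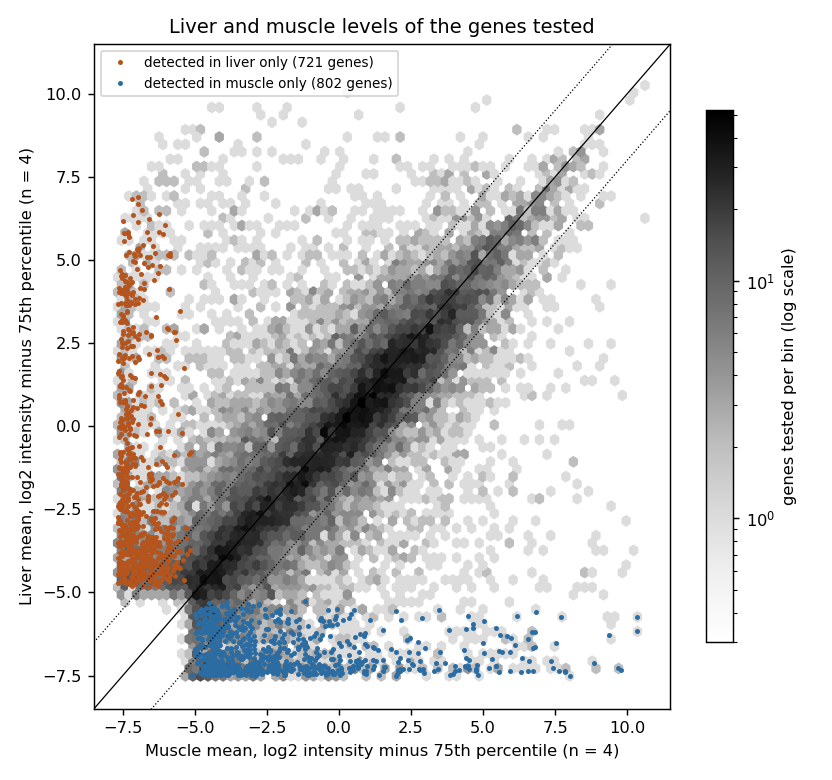
Mean level in muscle (x axis) and in liver (y axis), both as log2 intensity less the 75th percentile of its array over 4 arrays, for the 18157 genes tested, with the number of genes in each hexagon as the grey shade on a log scale. The solid line marks equal levels and the dotted lines 4-fold, and the 721 genes detected in liver only and the 802 detected in muscle only run along the left and lower edges.

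Among genes detected on all 8 arrays, the largest differences towards liver were those of Fbp1 (12.96 ± 0.63), the fructose bisphosphatase of gluconeogenesis, Itih3 (12.28 ± 0.39), an inter-alpha-trypsin inhibitor chain of plasma, and Cyp4a14 (12.27 ± 0.81), a fatty acid omega-hydroxylase. They were followed by Mup3, a major urinary protein made in liver (12.14), Ahsg, the plasma protein fetuin-A (12.05), the gene listed as 1300017J02Rik (11.87), Rdh7 (11.87), prothrombin F2 (11.71), Azgp1 (11.64) and the anticoagulant protease Proc (11.63). Fbp1 stood at 8.61, 8.79, 8.91 and 8.76 in liver and at -4.82, -4.88, -2.02 and -5.04 in muscle, where replicate 3 was again the highest array. Without that array its difference was 13.68, that of Cyp4a14 13.18 and that of Ahsg 13.21.

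Towards muscle the largest were those of Tnnc2 (-14.09 ± 0.13), the calcium-binding troponin C of fast fibres, Acta1 (-14.08 ± 0.32) and Pgam2 (-13.01 ± 0.11), the muscle form of phosphoglycerate mutase. Cox6a2, the heart and muscle form of a cytochrome c oxidase subunit (-12.90), Tnni2, fast troponin I (-12.89), Mylk2, the kinase of skeletal myosin light chain (-12.86), Fabp3, the fatty acid binding protein of muscle and heart (-12.72), Cacna1s, the voltage sensor of the transverse tubule (-12.44), a probe named only by its array design (-12.22) and Mylpf (-11.91) completed the set. Tnnc2 stood at 10.42, 10.25, 10.23 and 10.33 in muscle and at -3.45, -4.05, -3.90 and -3.72 in liver. The array design places its probe at chr2:164468366-164468425 and that of Fbp1 at chr13:62874438-62874497, both in mouse build mm8.

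Genes of hepatocyte function were higher in liver almost without exception. The 10 lists drawn for these functions held 180 tested genes, of which 178 were called higher in liver, 1 higher in muscle and 1 in neither direction, against 37.4% and 42.6% of all genes tested, and the arrays of the tissues did not overlap for 179, against 75.8%. The count higher in liver was also 178 without muscle replicate 3. Medians below set a gene with no detected muscle array at its at-least fold and take a gene detected on some of them as measured.

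All 25 plasma proteins tested were higher in liver, with a median difference of 10.19. Ambp, the precursor of alpha-1-microglobulin and bikunin, stood at 9.39 to 9.64 in liver and was detected on 2 of 4 muscle arrays, and it was at least 13238-fold higher in liver, or 26980-fold without muscle replicate 3. The smallest were those of the copper carrier Cp (6.04 ± 0.09) and the adhesion protein Vtn (6.46 ± 0.10), detected on all 8 arrays. All 22 genes of coagulation and fibrinolysis were higher in liver, with a median of 10.81. The fibrinogen gamma chain gene Fgg was at least 10944-fold and factor XII, F12, at least 4648-fold higher in liver, each detected on 1 muscle array, replicate 3, and without it the bounds were 21943 and 5551. Pros1, the gene of protein S, showed the smallest difference, with 2.65 to 2.75 in liver and 0.38 to 0.53 in muscle (2.22 ± 0.07). Of the complement genes, 19 of 19 were higher in liver, with a median of 7.77. Mbl2, the lectin that starts a complement pathway on microbial sugars, was at least 7022-fold and C4bp at least 4992-fold higher, both detected on muscle replicate 3 alone, and at least 9468-fold and 5483-fold without it. The smallest differences were those of the C1 proteases C1ra (3.78 ± 0.09) and C1s1 (2.71 ± 0.09).

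All 18 genes of bile acid synthesis and transport were higher in liver, with a median of 7.17. The uptake carrier Slco1b2, detected on 2 of 4 muscle arrays, was at least 4699-fold higher (6244-fold without muscle replicate 3), and the bile acid conjugating ligase Slc27a5, detected on 3, at least 4050-fold (5427-fold without it). Cyp7a1, the rate-limiting enzyme of the classical pathway, varied among the liver arrays more than its neighbours in the list, at 4.56, 4.37, 1.66 and 4.04, and in muscle was detected on replicate 1 only, at -3.52. It was at least 359.6-fold higher in liver, or 333-fold without muscle replicate 3 (adjusted p = 2.50e-05 over all 8 arrays). The phospholipid exporter Abcb4 (1.14 ± 0.10) and the mitochondrial hydroxylase Cyp27a1 (1.69 ± 0.17) were also expressed in muscle, where Abcb4 stood at 6.50 to 6.80 against 7.67 to 7.95 in liver. All 8 urea cycle genes were higher in liver, with a median of 8.95. Cps1, which fixes ammonia in the mitochondrion, was at least 5114-fold and Arg1, which releases urea, at least 4951-fold higher, both detected in muscle on replicate 3 alone, and at least 6220-fold and 5563-fold without it. Asl (6.37 ± 0.08) and the ornithine carrier Slc25a15 (6.01 ± 0.12) differed least.

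Of the genes of amino acid breakdown, 26 of 26 were higher in liver, with a median of 9.91. Mat1a, the methionine adenosyltransferase of liver, was at least 10976-fold higher, and Agxt, which detoxifies glyoxylate, at least 6582-fold. Both were detected in muscle on replicate 3 alone, and without it the bounds were 16781 and 8973. The proline catabolic enzyme Aldh4a1 (1.42 ± 0.10) and Gstz1 of tyrosine breakdown (3.99 ± 0.07) were detected on all 8 arrays.

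Gluconeogenesis and hepatic sugar handling gave 14 of 15 genes higher in liver, with a median of 7.45. Fbp1, given above, differed by 12.96 ± 0.63, and G6pc, the glucose-6-phosphatase that frees glucose into blood, by 10.58 ± 0.24, standing at 6.97 to 7.41 in liver and -3.84 to -2.88 in muscle. Its partner, the glucose-6-phosphate transporter Slc37a4, differed by only 1.40 ± 0.22, with 4.51 to 5.03 in muscle. The exception was Ppp1r3c, a subunit that brings protein phosphatase to glycogen, at 2.41, 1.43, 1.76 and 1.71 in liver and 5.17, 4.99, 4.90 and 5.42 in muscle (-3.29 ± 0.21, adjusted p = 1.14e-06), a difference opposite to that of the other members with no overlap of the arrays. All 15 genes of ketogenesis and peroxisomal oxidation were higher in liver, with a median of 5.79. Cyp4a14, given above, differed by 12.27 ± 0.81, the thiolase Acaa1a differed by 2.46 ± 0.08, and the mitochondrial thiolase Acat1, which muscle also uses to burn ketones, by 0.33 ± 0.08 (adjusted p = 0.00527).

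Of 17 hepatocyte transcription factors, 16 were higher in liver, with a median of 7.33, and 8 were detected in liver alone. Foxa2, a pioneer factor of endoderm, was at least 599-fold higher in liver, beside Hnf4a as given above. Cebpa (4.93 ± 0.13) and the fatty acid receptor Ppara (2.67 ± 0.17) were detected on all muscle arrays. All 15 liver hormones and carriers were higher in liver, with a median of 7.64. Igfbp1, a binding protein of insulin-like growth factors, was detected in muscle on replicate 3 alone and was at least 8180-fold higher in liver, or 15287-fold without that array. Igf1 itself differed by 7.33 ± 0.13, the selenium carrier Selenop by 2.28 ± 0.21 and thrombopoietin, Thpo, by 1.05 ± 0.09. Hamp, the iron hormone hepcidin, stood at 7.29, 6.89, 5.95 and 7.25 in liver, where replicate 3 was the lowest, and was at least 4732-fold higher than in muscle, where no array detected it.

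**Figure D4:**
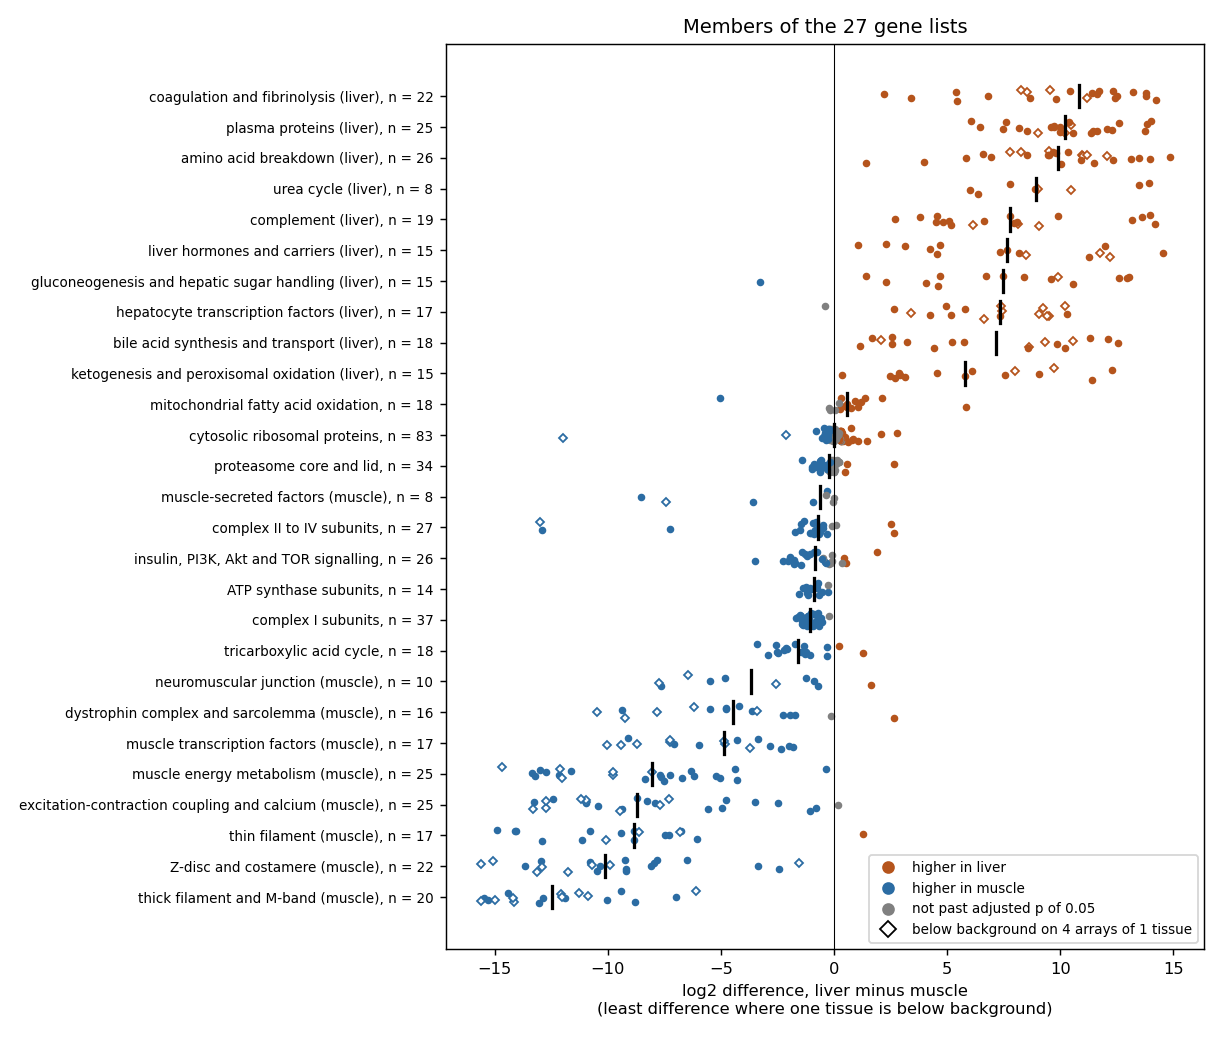
Each point is a tested member of 1 of 27 gene lists, placed on the x axis at its log2 difference (liver minus muscle), or at its least difference (open diamonds) where no array of the other tissue was above background, and bars mark list medians. The medians of the 10 liver lists lie to the right of 0 and those of the 9 muscle lists to the left, while ribosomal proteins have their median at 0.01.

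Genes of the contractile and metabolic apparatus of muscle fibres were higher in muscle to much the same degree. The 9 muscle lists held 159 tested genes, of which 151 were called higher in muscle, 3 higher in liver and 5 in neither direction, against 42.6% and 37.4% of all genes tested, and the arrays did not overlap for 153, against 75.8%. Without muscle replicate 3 the count higher in muscle was 149. All 20 genes of the thick filament and M-band were higher in muscle, with a median of -12.47. Beside Myh4, the fast myosin heavy chain Myh1 was at least 18763-fold higher and the M-band protein Myom2 at least 32118-fold higher in muscle. The slow myosin Myh7 stood at 9.23 ± 0.18 (SD, n = 4) in muscle and -4.95 ± 0.16 in liver, where 2 arrays detected it, and was at least 17760-fold higher in muscle. At the lower end were Myh3, the embryonic myosin, at least 67.9-fold higher in muscle, and Myom3 (-6.99 ± 0.33). Whether the probe of each myosin heavy chain gene also catches other members of the family was not tested.

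Of 17 thin filament genes 16 were higher in muscle, with a median of -8.86. Tnnt3, fast troponin T, was detected on 1 liver array and was at least 23602-fold higher in muscle, and the cardiac actin gene Actc1 differed by -6.08 ± 0.13. Tpm3, a tropomyosin of slow fibres with cytoskeletal forms in many cells, was higher in liver, at 3.79 to 4.04 against 2.40 to 2.91 (1.26 ± 0.12), but with the mean of all its probes in place of the brightest the difference was -1.90. Its probes thus disagree in direction. All 22 genes of the Z-disc and costamere were higher in muscle, with a median of -10.15. Actn3, the alpha-actinin of fast fibres, was at least 34343-fold and Tcap, the titin cap, at least 50444-fold higher, and the intermediate filament desmin, Des, stood at 7.05 ± 0.04 (SD, n = 4) in muscle and -2.12 ± 0.13 in liver (-9.18 ± 0.08). Fhl3 (-2.42 ± 0.19) and Myoz3, at least 2.94-fold, differed least.

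For excitation-contraction coupling and calcium handling, 24 of 25 genes were higher in muscle, with a median of -8.71. Ryr1, the calcium release channel, was detected on 3 liver arrays and was at least 8691-fold higher in muscle, and Atp2a1, the calcium pump of fast fibres, differed by -10.45 ± 0.09. The calcium buffer Pvalb was at least 10102-fold and Trdn, which anchors the release complex, at least 6714-fold higher in muscle. Pln, the inhibitor of the calcium pump in heart and slow fibres, did not pass the test, with -4.02 to -2.64 in liver and -4.18 to -2.84 in muscle (0.18 ± 0.42, adjusted p = 0.712). Of 10 tested genes of the neuromuscular junction 9 were higher in muscle, with a median of -3.69. The acetylcholine receptor subunit Chrna1 was at least 212-fold and the receptor-clustering protein Rapsn at least 87.9-fold higher, the adult receptor subunit Chrne differed by -0.73 ± 0.14, and Lrp4, the receptor for nerve-derived agrin, was higher in liver, at -0.35 to 0.02 against -2.06 to -1.67 (1.64 ± 0.12).

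In the dystrophin complex and sarcolemma, 14 of 16 genes were higher in muscle, with a median of -4.49. The sarcoglycan Sgca was at least 1436-fold and the muscle caveolin Cav3 at least 610-fold higher. Dystrophin itself, Dmd, differed by only -1.96 ± 0.10, with -0.61 to -0.38 in liver and 1.33 to 1.69 in muscle. Its autosomal relative Utrn did not pass the test (-0.12 ± 0.07, adjusted p = 0.152), and the syntrophin Sntb1 was higher in liver (2.66 ± 0.09). All 17 muscle transcription factors tested were higher in muscle, with a median of -4.87. Vgll2 was at least 1061-fold, Tbx15 at least 424-fold, Myog at least 153-fold and Myod1 at least 13.3-fold higher, none of them detected on a liver array. Mef2a (-1.79 ± 0.09) and Smyd1 (-1.97 ± 0.08) were detected in liver on all 4 arrays.

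All 25 genes of muscle energy metabolism were higher in muscle, with a median of -8.03. Ckm, the creatine kinase that buffers ATP in muscle, stood at 9.43, 9.37, 9.26 and 9.49 in muscle and was on no liver array well above background, and it was at least 26110-fold higher. Pygm, the glycogen phosphorylase of muscle, was at least 4389-fold higher, Ampd1 at least 4136-fold, and the oxygen store myoglobin, Mb, detected on 2 liver arrays, at least 9023-fold. Ldha, lactate dehydrogenase A, differed by -0.34 ± 0.13 (adjusted p = 0.0439), the weakest call of the list. Of 8 tested factors that muscle secretes, 5 were higher in muscle, with a median of -0.64. Fndc5, the precursor of irisin, differed by -8.53 ± 0.10 and the growth inhibitor Mstn was at least 171-fold higher, whereas Metrnl (0.01 ± 0.15, adjusted p = 0.963) and Bmp5 (-0.06 ± 0.10, adjusted p = 0.613) did not pass the test.

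Machinery that every cell uses differed far less. Of 83 cytosolic ribosomal protein genes 39 were not called, where 80.0% of all genes tested were called. Over all 83 the median was 0.01, and the genes called split into 25 higher in liver and 19 higher in muscle. This split turned with the processing, to 16 higher in liver and 38 higher in muscle after normexp and quantile normalization, with a median of -0.15. The exceptions were large. Rpl3l, a muscle paralogue of Rpl3, stood at 6.82, 6.79, 6.57 and 6.65 in muscle and was at least 4078-fold higher there than in liver, where no array detected it, while Rpl3 itself was higher in liver, at 5.72 to 5.96 against 3.69 to 3.82 (2.05 ± 0.08). Rps4l was also higher in liver (2.76 ± 0.25) and Rpl39l at least 4.42-fold higher in muscle. Ribosomal protein genes have near-identical copies that a probe may also catch. Of 34 proteasome genes of the Psma, Psmb, Psmc and Psmd families, 17 were higher in muscle, 3 higher in liver and 14 were not called. Their median was -0.23. Over all genes tested the shares were 42.6% higher in muscle and 37.4% higher in liver, with a median of -0.10. The 34 ranged from Psmd9 at 2.63 ± 0.11 to Psmd7 at -1.40 ± 0.12. The 3 higher in liver were Psmd9, Psmd10 (0.58) and Psmd5 (0.50), assembly factors rather than subunits of the finished proteasome.

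Over all genes tested, 42.6% were called higher in muscle. Genes of the respiratory chain were modestly higher in muscle. For complex I this held for 36 of 37 subunits, with a median of -1.07, among them Ndufa11 (-1.60 ± 0.08), and Ndufa6 did not pass the test (-0.23 ± 0.11, adjusted p = 0.0844). Of 27 subunits of complexes II to IV 23 were higher in muscle, with a median of -0.73, and the extremes in both directions were paired forms of cytochrome c oxidase subunits, Cox6a1 (2.66) and Cox8a (2.52) in liver and Cox6a2 (-12.90) and Cox8b, at least 8175-fold, in muscle. ATP synthase gave 13 of 14 subunits higher in muscle (median -0.88), among them Atp5g1 (-1.53 ± 0.10), while Atp5g3 was not called (-0.29 ± 0.21, adjusted p = 0.234).

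In the tricarboxylic acid cycle 16 of 18 genes were higher in muscle, against 42.6% of all genes tested, with a median of -1.59. Idh3a, a subunit of isocitrate dehydrogenase, stood at 2.79, 2.69, 2.18 and 2.14 in liver and 5.84, 5.86, 5.95 and 5.87 in muscle (-3.43 ± 0.16), and citrate synthase, Cs, differed by -2.90 ± 0.08. Suclg2, the GTP-forming form of succinyl-CoA ligase, was higher in liver (1.28 ± 0.07). Fh1, fumarate hydratase, was called at 0.20 ± 0.08 (adjusted p = 0.0492), a value at the threshold whose sign turned after normexp and quantile normalization. Mitochondrial fatty acid oxidation ran the other way, with 13 of 18 genes higher in liver and 1 higher in muscle. The median was 0.55, and 37.4% of all genes tested were higher in liver. Cpt1a, the liver form of the carnitine transferase that admits fatty acids to the mitochondrion, differed by 5.82 ± 0.11 and its muscle form Cpt1b by -5.04 ± 0.15. The thiolase Acaa2 was higher in liver (2.11 ± 0.09), and Acadl (-0.21 ± 0.11, adjusted p = 0.115) and Hadha (0.05 ± 0.11, adjusted p = 0.658) were not called.

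Among 26 genes of insulin, PI3K, Akt and TOR signalling, the pathway of the kinase gene that the mutant mice carry in a single copy, 17 were higher in muscle, 3 in liver and 6 were not called, with a median of -0.82, where 80.0% of all genes tested were called. Akt1 stood in these wild-type mice at 3.64, 3.57, 3.51 and 3.63 in liver and at 3.69, 3.63, 4.11 and 3.77 in muscle. The tissues overlapped and Akt1 was not called (-0.21 ± 0.11, adjusted p = 0.119). Akt2, the form most tied to glucose uptake, was higher in muscle, at 4.38 to 4.64 against 2.43 to 2.70 (-1.93 ± 0.09, adjusted p = 1.82e-07). The insulin receptor Insr was not called (-0.09 ± 0.08, adjusted p = 0.335), whereas the receptor for insulin-like growth factor, Igf1r, stood at 0.90 to 1.14 in muscle and -2.58 to -2.31 in liver (-3.50 ± 0.09). The ligand of that receptor, Igf1, differed in the opposite direction, as given above. Tsc1, which restrains TOR, was higher in muscle (-2.26 ± 0.11), and the kinase subunit Pik3cb (0.51 ± 0.11) was higher in liver.

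Paired liver and muscle forms of the same enzyme or protein parted in most of the pairs chosen. Of 29 such pairs, 24 had the liver form called higher in liver and the muscle form called higher in muscle. Over all genes tested, 37.4% were called higher in liver and 42.6% higher in muscle. Each form was compared between tissues on its own probe, and the pairs were chosen with earlier results of these data known. Among the widest gaps were those of Fabp1 against Fabp3, of the glucose transporters Slc2a2 against Slc2a4 and of the fructose bisphosphatases Fbp1 against Fbp2. Fabp1 stood at 7.16, 8.25, 8.96 and 8.97 in liver and at -5.55, -4.29, 0.21 and -5.22 in muscle, where replicates 2 and 3 detected it, and was at least 4241-fold higher in liver, or 10510-fold without replicate 3. Fabp3 stood at -3.85, -3.88, -3.31 and -4.10 in liver and at 8.81, 8.94, 9.16 and 8.82 in muscle (-12.72 ± 0.17). Each form was thus high in the tissue where the other was low. Slc2a2, the insulin-independent transporter, was at least 961-fold higher in liver, where it stood at 4.01 to 4.76, and Slc2a4, which insulin brings to the surface, stood at 7.33 ± 0.03 (SD, n = 4) in muscle and -4.81 ± 0.33 in liver, detected there on 3 arrays, at least 4450-fold higher in muscle. Fbp2 differed by -6.73 ± 0.10. Actn4, the non-muscle alpha-actinin, was higher in liver (2.28 ± 0.12) beside the muscle form Actn3.

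In 5 pairs the liver form was not called higher in liver or the muscle form not higher in muscle. The brain-type creatine kinase Ckb stood at 0.31 to 0.76 in liver and 0.29 to 0.58 in muscle (0.02 ± 0.12, adjusted p = 0.871), while Ckm was detected on the 4 muscle arrays and on no liver array. Mat2a, the widespread methionine adenosyltransferase, was not called (-0.20 ± 0.15, adjusted p = 0.250) beside Mat1a, and Cox7a2 was not called (0.09 ± 0.11, adjusted p = 0.441) beside Cox7a1 at -7.23 ± 0.17. For Prkag1 (-0.26 ± 0.10, adjusted p = 0.0377) and Prkag3, at least 89.6-fold, subunits of the energy-sensing kinase AMPK, and for the calcium pumps Atp2a2 (-2.50 ± 0.20) and Atp2a1, both forms were higher in muscle.

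**Figure D5:**
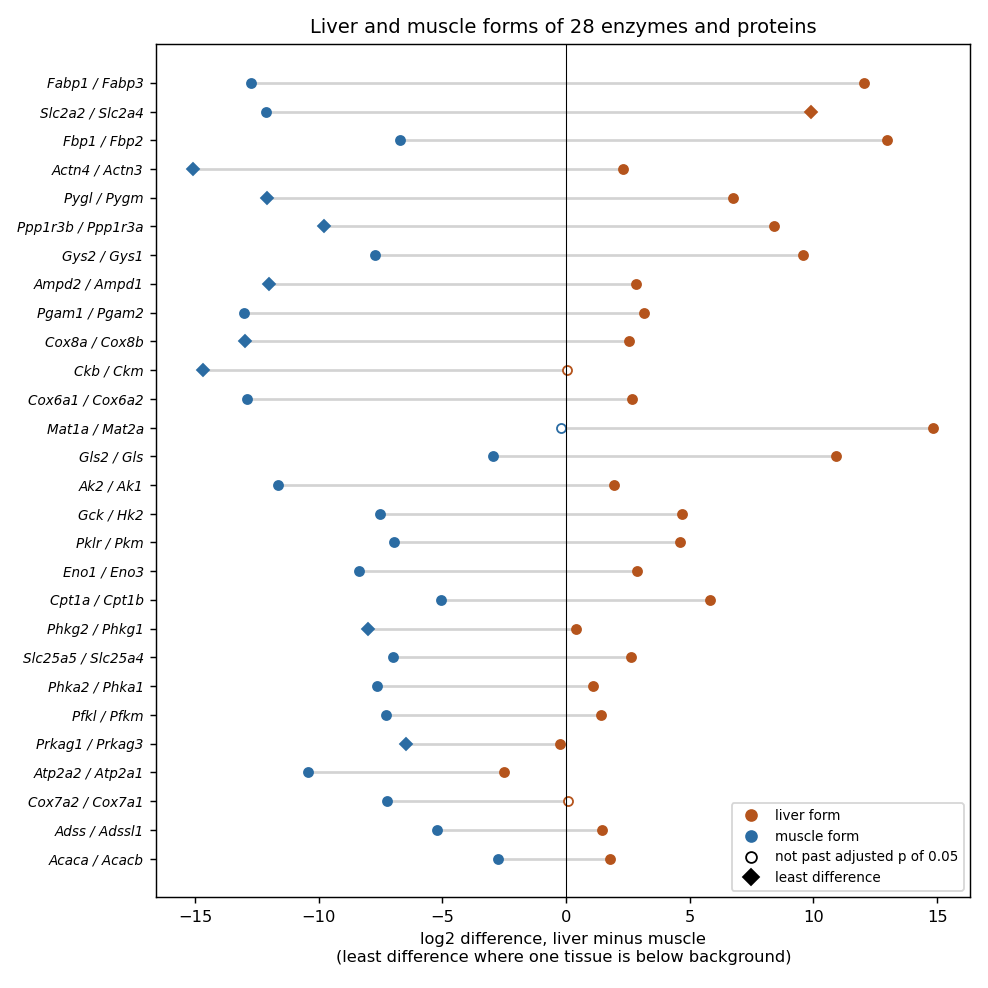
For 28 of the pairs the x axis gives the log2 difference (liver minus muscle) of the liver form (orange) and of the muscle form (blue), joined by a line, with diamonds for a least difference and open circles for genes not called. In 23 of these both points are filled and lie on opposite sides of 0.

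A smaller set of genes was detected in a single tissue. Of 27581 genes on the array, 14347 were detected on all 8 arrays and 7036 on none. On all 4 liver arrays and no muscle array, with every probe of the gene counted, were 721 genes, 531 of them with a RefSeq symbol, and on all 4 muscle arrays and no liver array were 802, of which 628 had one. The at-least fold had a median of 7.08 in the liver set and 4.68 in the muscle set. On the 4 wild-type fat arrays of the same age, 299 of the liver set and 442 of the muscle set were detected on every array, and 280 and 233 on none.

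The liver set was led by Cyp3a44, a cytochrome P450, at least 4909-fold higher in liver and at 6.68, 7.35, 6.56 and 7.01 there. Hamp, given above, came next, followed among others by Bhmt2, a methyltransferase of methionine metabolism (at least 3628-fold), and Dmgdh, which oxidises dimethylglycine (3388-fold). Mst1, also known as macrophage-stimulating protein (3055-fold), Cyp3a25 (2996-fold), the glucuronosyltransferase Ugt2b37 (2900-fold) and Gltpd2 (2724-fold) were also among the 10 largest. Of these, Cyp3a44, Bhmt2, Dmgdh, Cyp3a25 and Ugt2b37 were detected on no fat array. For each of the 8 named, muscle replicate 3 gave the highest of the 4 undetected muscle signals. Members of the cytochrome and glucuronosyltransferase families are alike in sequence, and a probe may catch several.

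In the muscle set Myh4, Tcap, Actn3, Myom2 and Ckm came in this order, with the bounds given above. Myl1, the essential light chain of fast myosin, was at least 18125-fold higher in muscle, followed by Pvalb, by Cmya5, a protein of the costamere and Z-disc (at least 8967-fold), by the Z-disc protein Myot (8868-fold) and by Cox8b. Myl1 stood at 8.63, 8.86, 8.98 and 8.98 in muscle and at -7.59, -7.56, -7.02 and -6.28 in liver, below detection on each array. Of the 10, 8 were also detected on all 4 wild-type fat arrays of that age.

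A gene missing from a single tissue by this rule can hang on 1 array. Among genes detected on all 4 liver arrays, 214 were detected on muscle replicate 1 and no other muscle array, against 44 for replicate 2, 55 for replicate 3 and 24 for replicate 4. Among genes detected on all 4 muscle arrays, 146, 79, 34 and 49 were detected on liver replicates 1 to 4 alone. Without muscle replicate 1 the liver set grew from 721 to 933 genes, and without liver replicate 1 the muscle set grew from 802 to 947.

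Markers of other cell types also differed, where 37.4% of all genes tested were called higher in liver and 42.6% higher in muscle. The summed linear level of 8 adipocyte markers was 13.3 to 42.4 in liver and 242 to 293 in muscle, where 7 of the 8 were called higher, and Adipoq and Lep were detected on no liver array. For 9 Kupffer cell and macrophage markers, all called higher in liver, the sum was 111 to 144 in liver and 2.43 to 3.98 in muscle, with Cd5l, Clec4f and Vsig4 on no muscle array. The 6 markers of liver sinusoidal endothelium gave 41.3 to 47.7 and 3.40 to 4.21, all called higher in liver, and 9 leukocyte markers were likewise lower in muscle, at 1.43 to 2.50 against at least 9.19, with 7 called higher in liver. All 6 smooth muscle markers were called higher in muscle, with a median difference of -4.04. Their sum was 543 to 611 in muscle and 10.7 to 13.9 in liver, and Acta2 alone gave at least 93.8% of it on each muscle array. All 7 Schwann cell markers were called higher in muscle, at 13.4 to 15.7 against 2.02 to 2.10. Of the 9 markers of fibroblasts and stellate cells, at 217 to 245 in muscle against 95.5 to 112, 7 were called higher in muscle and 2 higher in liver, Lrat, which stores retinol in stellate cells (5.42), and Reln (3.68). Erythroid markers overlapped, at 15.1 to 31.3 in liver and 17.0 to 26.8 in muscle. Several smooth muscle and adipocyte markers are also expressed by other cells, and the part of these cells in the lists above was not tested.

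The same tissue difference was then read on arrays that the comparison did not use. In wild-type mice of 8 weeks, with 3 arrays of each tissue, 13974 of 14525 called genes had the same sign (96.2%), 12582 were called in the same direction and 108 in the opposite one, where 78.7% of all genes tested were called. In Akt1+/- mice of 35 weeks, with 4 arrays of each tissue, the sign was the same for 14364 of 14515 (99.0%), and 13144 were called in the same direction and 16 in the opposite one, with 77.3% of genes called. Of the genes with 4-fold differences or more, 5112 of 5252 (97.3%) were called in the same direction at 8 weeks and 5206 of 5246 (99.2%) in Akt1+/- mice. All 25 plasma proteins and all 20 thick filament genes were called in the same direction in both sets of mice. Other lists did so in part. Of the 44 ribosomal protein genes called, 30 were called in the same direction at 8 weeks and 33 in Akt1+/- mice, and of the 20 called genes of insulin and Akt signalling, 16 in each set. For complex I this held for 32 and 36 of 36 genes, for complexes II to IV for 19 and 25 of 25, and for the proteasome for 16 and 17 of 20. A single slide of the series held both tissues, with 1 liver and 2 muscle arrays of Akt1+/- mice of 8 weeks. On it 14041 of 14533 called genes (96.6%) and 5229 of 5253 genes with 4-fold differences (99.5%) had the same sign, as values without a test.

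The size of the tissue difference was tested against age in the wild-type mice. Of 18282 genes tested, 2753 (15.1%) differed in their liver-to-muscle difference between 8 and 35 weeks, 1334 with a higher and 1419 with a lower value at 35 weeks. Each of the 4 groups lay on its own slide, so that slide and the interaction cannot be told apart, and with slide as a random block in a fit over 28 arrays the count was 1404. The largest change towards muscle was that of Ostn, the secreted peptide musclin, which stood in muscle at -1.81 ± 0.15 (SD, n = 3) at 8 weeks and at 2.12 ± 0.19 (SD, n = 4) at 35 weeks and was detected on no liver array at either age (interaction -4.33 ± 0.22 SE, adjusted p = 2.34e-06). Slc22a7, an organic anion transporter of liver and kidney, stood at 0.45 in liver and -5.04 in muscle, detected on 1 of 3 muscle arrays, at 8 weeks and at -0.27 and -2.35 at 35 weeks (-3.41 ± 0.22). Derl3, which helps to clear misfolded proteins, stood at 2.98 ± 0.99 in liver at 8 weeks and -0.91 ± 1.61 at 35 weeks (-4.32 ± 1.05), with a wide spread at both ages. Cd209f (-3.90 ± 0.73) and 1700001O22Rik (-3.74 ± 0.33) were the others with the largest changes in this direction. Like Ostn, 1700001O22Rik was detected on no liver array at either age. The sizes for Ostn, 1700001O22Rik and Slc22a7 rest in part on signals not above background and are not exact.

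In the opposite direction stood 4930535E02Rik (6.08 ± 0.45), Eml6 (4.91 ± 0.65) and 3 features that carry only sequence names. All 5 were detected on no liver array of wild-type mice at 8 weeks and on all 4 at 35 weeks, and on every muscle array at both ages. Their fitted sizes rest on liver signals not above background at 8 weeks and are not exact. 4930535E02Rik, for example, stood in liver at -6.90 ± 0.19 (SD, n = 3) at 8 weeks and at 0.58 ± 0.58 (SD, n = 4) at 35 weeks, and in muscle at -0.20 ± 0.58 and 1.20 ± 0.32.

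Against genotype at 35 weeks, 14 of 18727 genes (0.0748%) had a liver-to-muscle difference that was not the same in Akt1+/- and wild-type mice, 13 with a higher value in Akt1+/- mice and 1 with a lower one, and 1698 passed an unadjusted p of 0.05. Among them was Tpsg1, a mast cell tryptase, which stood in liver at -4.17 ± 0.51 (SD, n = 4) in Akt1+/- mice, detected on 4 arrays, and was detected on no liver array of wild-type mice, while muscle stood at -3.70 ± 0.10 and -4.23 ± 0.46 (interaction 2.42 ± 0.36 SE, adjusted p = 0.0314, its size likewise not exact). The fitted values of Sh3bgr (2.00 ± 0.18), Fa2h (1.92 ± 0.31) and Hspa1l (1.497 ± 0.218) rest on liver signals that wild-type arrays detected on 0, 0 and 1 of 4, against 3, 3 and 4 of 4 in Akt1+/- mice, so that their sizes are not exact. Dzip1l differed by 1.62 ± 0.25. Aard (-1.13 ± 0.19, adjusted p = 0.0422) was detected on every liver array and on no muscle array of either genotype, and the fitted value rests on muscle signals not above background (-6.44 and -7.29), beside -3.47 and -3.19 in liver, in Akt1+/- and wild-type mice. Mean liver levels of all 6 were at -2.89 or lower in both genotypes. The count ran from 1 to 66 as single arrays were left out, with 66 without wild-type liver replicate 1, and leaving out any of 13 of the 16 arrays moved it by over 1.5 times. With the replicate number as a block the count was higher still, as given below, though no pairing is stated. The 4 groups again lay on 4 slides, so that slide and the interaction cannot be told apart.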

How the data were processed

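Liver and quadriceps RNA of wild-type mice was measured on 1-colour Agilent arrays of 45018 spots. The deposited scanner files hold a spot intensity that the authors obtained with Agilent Feature Extraction (9.1 per the labels, 9.5.3.1 per the file headers), background-subtracted and not scaled between arrays, and the authors also deposited a log2 table of the same arrays, which holds the log2 intensity of each array relative to its 75th percentile (the 2 differ by an SD of 0.00838 or less). Its columns have medians from -3.61 to -3.47 over the 4 liver and 4 muscle arrays. Control spots and outlier flags were left out, spots of a probe were averaged, and the 75th percentile of the array was subtracted on the log2 scale. Of 41174 probes, 24375 were named by accession, 6301 by current and 2426 by older symbol in the RefSeq gene table, and 8072 kept the array's name. A gene was tested where at least 3 of 4 arrays of a tissue had a probe well above background, and its brightest such probe stood for it.

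The groups were compared with limma 3.58.1 (lmFit and eBayes) in R 4.3.3 without covariates, with Benjamini-Hochberg adjustment over all genes. On simulated data with 200 of 18157 genes changed by a log2 of 1, 64.0% were recovered beside 11 false calls. In the real comparison 80.0% of genes were called, and the adjusted threshold depends on the share that differs. The simulated rates thus do not give the recovery in this comparison. Counts for lists and pairs come from this fit, with no set test. The groups, lists and pairs were chosen with earlier results of these data known. Named are the 10 largest differences per direction among genes on all 8 arrays, the 10 largest bounds per tissue, the 2 members at each end of each list, the defining markers, the pairs that break the pattern or lie widest apart, 5 genes per direction of each interaction, and Akt1, Akt2, Igf1 and Insr. Other members given for their role, such as Cyp7a1, G6pc, Des, Myog and Slc2a4, were chosen after their values were seen. Some genes that the rule names are not reported here. The alternatives were another background correction and scaling, other filters, the mean of all probes, a replicate block, larger fits and leaving out each array. The study's methods give an older age and a group size that differ from the labels, which were followed here.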

Additional observations from a re-analysis of the deposited data

Results flagged for a closer look

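In 24 of 300 sets of 4 arrays, each a named gene in a single tissue, the highest or lowest array lay so far from the nearest other one that the gap, as a share of the whole range, exceeded 0.829, which chance alone reaches in about 1 set in 20. Of these, 11 were high values of muscle replicate 3 for genes of liver, with a share of 0.942 for Igfbp1, 0.941 for Proc, 0.926 for Fbp1, 0.907 for C4bp, 0.889 for Ahsg, 0.870 for Cps1, 0.868 for F12, 0.867 for Azgp1, 0.860 for Mat1a, 0.858 for Itih3 and 0.836 for Mbl2. Liver replicate 1 was low for 5 genes, Slc2a2 (0.891), Cox7a2 (0.883), Slco1b2 (0.882), Ttr (0.881) and Cox8a (0.851). Muscle replicate 2 was high for Chrna1 (0.893), Pgam2 (0.857) and Rapsn (0.845). The rest were single genes: Cyp7a1, high in muscle replicate 1 (0.953), Myod1, low in muscle replicate 4 (0.914), Smyd1, high in liver replicate 4 (0.929), and in liver replicate 3 Cyp27a1, low (0.883), and Agxt, high (0.870).

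The tissue difference changed with age in wild-type mice, by the test of the interaction (35 weeks minus 8 weeks), for 4930535E02Rik (6.08), Eml6 (4.91), TC1675885 (4.68), ENSMUST00000036010 (4.53), AK083849 (4.45), Ostn (-4.33), Derl3 (-4.32), Cd209f (-3.90), 1700001O22Rik (-3.74) and Slc22a7 (-3.41), the 5 largest in each direction among genes detected on all arrays of at least 1 tissue. It changed with genotype (Akt1+/- minus wild-type) for Tpsg1 (2.42), Sh3bgr (2.00), Fa2h (1.92), Dzip1l (1.62), Hspa1l (1.497) and Aard (-1.13). For Sh3bgr the interaction test gave an adjusted p of 0.000497, and for the others 0.0314 to 0.0422. Without Akt1+/- liver replicate 1, 5 of these genes lost the call and 1 kept it. The same counts held without liver replicate 4 or muscle replicate 1 of those mice. Sizes that rest on signals not above background are not exact, and slide cannot be told apart from either interaction.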

How the results depend on the processing

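Signal over background limits what can be tested. With genes kept only where detected on all 8 arrays, fewer genes were tested. Of these, 1567 were 4-fold or more higher in liver and 1316 in muscle. In the liver lists 103 genes were called higher in liver, in the muscle lists 77 higher in muscle, and 13 pairs were of opposite direction. That filter drops every gene without a probe detected on all 8 arrays, and so every gene detected in a single tissue. A fall in these counts thus does not show that calls were lost. Normexp background correction with quantile normalization gave 1528 and 1276 genes at 4-fold, and 16 ribosomal protein genes higher in liver and 38 in muscle. Tested against a difference of 2-fold (treat), 3665 genes were higher in liver and 3723 in muscle. With the scanner's weaker flag of a positive and significant signal in place of well above background, 275 genes were detected in liver only and 336 in muscle only. The age interaction gave 1762 genes with no filter on dim probes and 1404 in a fit over 28 arrays that took slide as a random block, an alternative chosen after seeing the data. The genotype interaction gave 9 genes scaled to the median, 1 with no filter, 9 with genes detected on all arrays of the fit and 5 in that 28-array fit with slide.

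Leaving out single arrays gave 6422 to 6864 genes higher in liver, 7372 to 7769 higher in muscle, 24 to 25 pairs of opposite direction and 1836 to 2750 genes for the age interaction. For the genotype interaction the range was 1 to 66. It was 66 without wild-type liver replicate 1, 6, 9 and 9 without wild-type liver replicates 2, 3 and 4, 1, 2 and 1 without Akt1+/- liver replicates 1, 3 and 4, 1 without each of wild-type muscle replicates 1, 2 and 4, and 1, 4 and 8 without Akt1+/- muscle replicates 1, 2 and 4, and the cause was not tested. No paired design is stated. On the liver and muscle slides of 35 weeks the replicate number was also the position of the array on its slide. Position and a shared mouse thus cannot be told apart there. Same-numbered liver and muscle arrays deviated together at r = 0.30, 0.07, 0.10 and 0.20, each array correlating best with its own number, and with the replicate number as a block 6899 genes were higher in liver, 7841 in muscle, 24 pairs were opposite, and 2639 and 75 genes passed the age and genotype interactions, the last against 14 without the block.

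Among named genes, Fh1 reversed to -0.13 under normexp and quantile normalization and Tpm3 to -1.90 with the mean of all probes. Over the alternatives, 2881 values of named genes kept their direction and side of the threshold, 105 lost the call, 12 gained it and 13 moved. Slide as a block within the 8, 14 or 16 arrays could not be run, since no group there spans more than 1 slide.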
